A study of Mus musculus with 27 samples.

Results

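The genes described here were 10 extracellular matrix and cytoskeletal genes that are commonly used to mark mesenchymal cells, namely Tnc, Fn1, Sparc, Postn, Fbn1, Lox, Thbs1, Thbs2, Spp1 and Vim. The rule took them by symbol alone, and all 10 were found among the 24953 genes listed in the deposited expression table of 9 libraries. The libraries came from mK4 cells, a line derived from mouse metanephric mesenchyme, the embryonic tissue that gives rise to the nephrons by a mesenchymal to epithelial transition. The control group was the parental line (3 libraries). The Runx1KO group carried a CRISPR-Cas9 deletion of the Runx1 exon with the start codon used in these cells (3 libraries), and the ZebDKO group carried deletions of the exons of Zeb1 and Zeb2 that hold their start codons (3 libraries). All groups were grown in the same medium, untreated, in triplicate cultures. How many clones of each knockout were sequenced was not given in the sources used here, so an effect of the clone and an effect of the genotype cannot be told apart. ZebDKO cells had been checked at the protein level for Zeb1. Binding of Runx1 (control cells) and Runx2 (control and Runx1KO cells) was mapped by ChIP-seq and open chromatin by ATAC-seq (control and Runx1KO cells), each from 3 libraries per group.

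The matrix around mesenchymal cells is built from fibrillar glycoproteins and from matricellular proteins. Fibronectin (Fn1) is assembled by integrins into fibrils that cells pull on, and fibrillin 1 (Fbn1) forms the microfibrils on which elastic fibres are laid. Lysyl oxidase (Lox) crosslinks collagen and elastin. Tenascin C (Tnc), Sparc, periostin (Postn), the thrombospondins (Thbs1, Thbs2) and osteopontin (Spp1) bind matrix, growth factors or cell surface receptors and tune adhesion rather than bear load. Vimentin (Vim) is the intermediate filament protein of mesenchymal cells, and its loss together with that of fibronectin is a classical reading of a mesenchymal to epithelial change.

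The values are TPM, a measure of transcript abundance scaled for gene length and for the total of each library. The study's methods state a minimum number of reads per RNA-seq library, but the table gives no read numbers from which the depth behind a value could be computed. Each library listed between 12541 and 12697 genes at 1 TPM or more. TPM of whole Runx1 does not test the deletion of 1 exon. Runx1 itself was listed at 17.4 ± 1.61 TPM in control, 29.6 ± 0.987 TPM in Runx1KO and 10.1 ± 0.608 TPM in ZebDKO cells (mean ± SD, n = 3). Zeb1 was at 15.0 ± 0.709, 0.167 ± 0.0577 and 16.1 ± 1.1 TPM in the same order, and Zeb2 at 5.20 ± 0.3, 0.2 and 1.70 ± 0.1 TPM, so that the level of Zeb1 transcript was not lower in ZebDKO than in control cells. Of 11 markers of metanephric mesenchyme 6 reached 1 TPM in control cells, while Six2 and Hoxd11 were listed at 0. Their summed level lay between 671.3 and 682.8 TPM in control, 716.7 and 784.8 TPM in Runx1KO, and 615.3 and 645.5 TPM in ZebDKO libraries, but single markers moved. By the call limits given below, 3 of 6 tested were lower in Runx1KO cells, against 5.1% of all genes tested. They were Osr1 (from 66.4 to 0.4 TPM) and Gdnf (from 12.7 to 0.1 TPM), both tested through the control libraries alone, and Eya1 (from 16.2 to 5.87 TPM). In ZebDKO cells 1 of 6 was called lower (Osr1, 18.2 TPM) and 1 higher (Gdnf, 39.8 TPM), against 7.28% and 7.49% of all genes. The summed level of 11 epithelial markers rose from between 4.00 and 6.20 TPM in control libraries to between 2676 and 2758 TPM in Runx1KO and between 1290 and 1354 TPM in ZebDKO libraries. Most of it was Krt8, a keratin of simple epithelia (2.43 TPM in control, 2353 TPM in Runx1KO and 1050 TPM in ZebDKO cells), while Cdh1, Cldn3 and Cldn7 stayed at 0.5 TPM or less in mean in every group. The 7 markers tested in Runx1KO cells were all called higher (7.91% of all genes), as were the 6 tested in ZebDKO cells (7.49%). Of these, 5 and 4 entered the test through the knockout libraries alone and had to differ. Epcam was at 0 in control and Runx1KO and at 27.9 TPM in ZebDKO cells. The summed level of 6 renal stroma markers lay between 145.3 and 157.9 TPM in control, 92.9 and 98.1 TPM in Runx1KO, and 82.8 and 86.5 TPM in ZebDKO libraries. Of 3 tested, 0 were called in Runx1KO cells and 1 was called lower in ZebDKO cells (Tbx18, from 57.3 to 26.8 TPM), against 7.28% of all genes. That of 6 leukocyte markers was at most 3.4 TPM in control, 33 TPM in Runx1KO and 29.5 TPM in ZebDKO libraries, nearly all of it Csf1r in the knockouts, with Ptprc at 0 throughout, and that of 6 endothelial markers was at most 5.8 TPM in any library. The part of these cell markers in the results below was not tested. In bulk RNA, fewer cells of a type and less RNA per cell cannot be told apart.

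Differences were fitted with limma on log2(TPM + 1). A gene entered the test of a comparison when 3 or more of its 6 libraries reached 1 TPM, and it was called when its absolute log2 fold change was over 1 (2-fold) with a Benjamini-Hochberg adjusted p under 0.05. In Runx1KO cells 6 of the 8 members tested were called, against 13% of all 13067 genes tested. Tnc, Fn1, Postn and Spp1 were lower (4 of 8, against 5.1% of all genes), and Thbs1 and Thbs2 were higher (2 of 8, against 7.91%). Postn and Thbs2 reached 1 TPM in 1 of the groups only, so they had to differ to be tested, and the count is no support beyond the other 6 members, of which 1 was higher and 3 were lower. In ZebDKO cells 1 of the 7 members tested was called (Postn, lower), against 14.8% of 12974 genes, of which 7.28% were lower and 7.49% higher. Postn entered that test through the control libraries alone, and of the other 6 members 0 were called. Between the knockouts 3 of 7 were called, with Tnc and Fn1 higher and Thbs2 lower in ZebDKO than in Runx1KO cells, against 15.8% of 13071 genes, of which 6.59% were higher and 9.2% lower, and Thbs2 entered through the Runx1KO libraries alone. Most small differences were also past the p limit and had groups that did not overlap, in members and in the background alike: 7 of 8 members in Runx1KO cells had an adjusted p under 0.05 (70.5% of all genes) and 7 of 8 did not overlap (73.7%). In ZebDKO cells both counts were 7 of 7 (79.4% and 81%), and between the knockouts again 7 of 7 (80% and 81.7%). Both comparisons with control cells used the same 3 control libraries. The median log2 fold change of the tested members was -0.68 in Runx1KO cells (all genes, -0.06), -0.09 in ZebDKO cells (all genes, -0.18) and 0.13 between the knockouts (all genes, -0.15). The ZebDKO medians over all genes moved to 0.01 against control and to 0 against Runx1KO cells after median-ratio scaling, so small differences of ZebDKO cells are read against that shift.

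**Figure D1:**
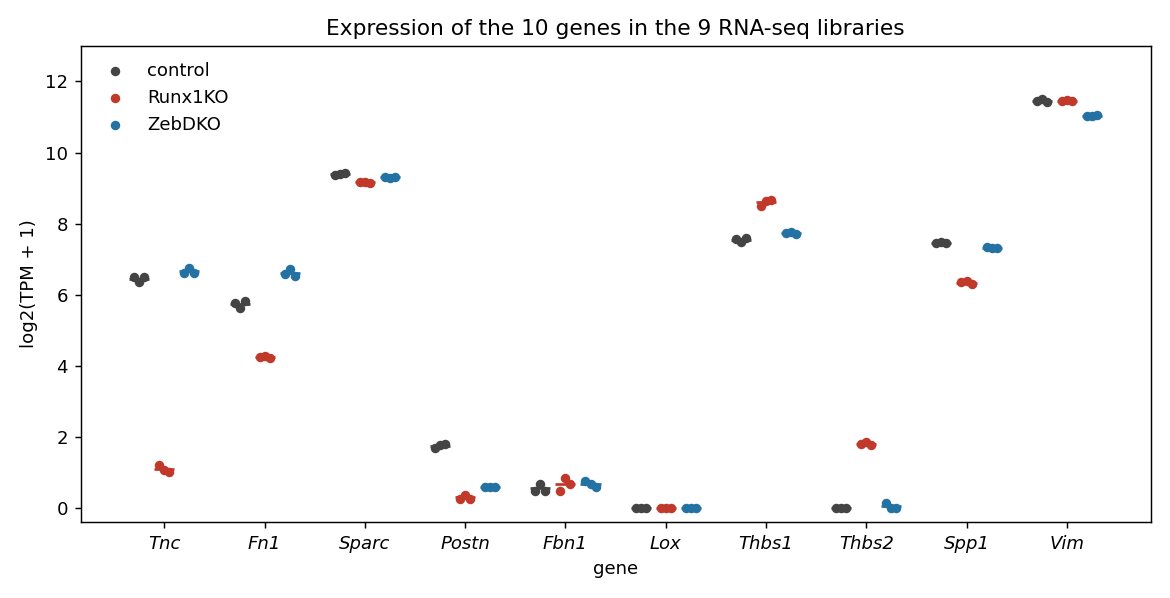
Expression of the 10 genes (x axis) as log2(TPM + 1) (y axis) in the 9 libraries, with 1 point per library and a bar at the mean of the 3 libraries of each group (grey control, red Runx1KO, blue ZebDKO). Tnc falls from 86.7 to 1.13 TPM in Runx1KO and stands at 100.2 TPM in ZebDKO cells, Vim lies between 2076 and 2887 TPM in every library, and Lox is at 0 throughout.

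Vimentin was the most abundant of the 10 transcripts in every library and made up 63.3% to 72.9% of their summed TPM. The control libraries held 2773, 2887 and 2749 TPM of Vim, the Runx1KO libraries 2792, 2845 and 2782 TPM, and the ZebDKO libraries 2078, 2076 and 2114 TPM. Control and Runx1KO libraries overlapped, while all ZebDKO libraries lay below both other groups. The log2 fold change in Runx1KO cells was 0.0021 with a 95% interval from -0.058 to 0.063 (limma, adjusted p = 0.947). The value depended on the scaling, at 0.067 (limma, adjusted p = 0.0944) with median-ratio scaling and -0.073 (limma, adjusted p = 0.0249) with quantile normalization. Vim ranked 8th of all genes by mean TPM in control and 11th in Runx1KO cells. In ZebDKO cells the log2 fold change was -0.42 ± 0.026 (SE, limma, adjusted p = 5.05e-06), which did not reach the 2-fold limit, and Vim ranked 30th. The size of this ZebDKO value depended on the processing, with a range of -0.54 to -0.22 over 16 alternatives. The summed TPM of all 10 genes was 3981 ± 64.7 in control, 3869 ± 51.1 in Runx1KO and 3289 ± 14.2 in ZebDKO cells (SD, n = 3). Without Vim the sums were 1178 ± 15.4, 1063 ± 23.6 and 1200 ± 7.62 TPM.

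Tenascin C, a hexameric glycoprotein of embryonic and healing matrix, showed the largest difference among the members. Tnc was listed at 89.4, 80.8 and 89.8 TPM in control libraries, at 1.3, 1.1 and 1 TPM in Runx1KO libraries, and at 97.6, 106 and 97 TPM in ZebDKO libraries. No library of 1 group reached into another group. Mean Tnc was 76.5-fold lower in Runx1KO than in control cells, with a log2 fold change of -5.36 ± 0.070 (SE, limma, adjusted p = 7.10e-09), the 32nd largest absolute change of the 13067 genes tested. In ZebDKO cells it was 0.21 ± 0.055 (SE, limma, adjusted p = 0.00945), short of the 2-fold limit. The direct difference between ZebDKO and Runx1KO cells was 5.57 ± 0.066 (SE, limma, adjusted p = 8.59e-09).

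Fibronectin, the main fibril-forming adhesive glycoprotein, was lower in Runx1KO cells and, short of the 2-fold limit, higher in ZebDKO cells. Fn1 was at 53.7, 48.8 and 55.4 TPM in control libraries, at 18, 18.3 and 17.6 TPM in Runx1KO libraries and at 94.3, 105.6 and 92 TPM in ZebDKO libraries, with no overlap among the groups. The log2 fold change was -1.498 ± 0.052 in Runx1KO cells (SE, limma, adjusted p = 4.48e-07) and 0.87 ± 0.067 in ZebDKO cells (SE, limma, adjusted p = 1.46e-05). The second value did not reach the 2-fold limit, and it passed that limit at 1.07 (limma, adjusted p = 2.95e-06) after median-ratio scaling, with a range of 0.81 to 1.07 over the 16 alternatives. Compared directly, Fn1 was higher in ZebDKO than in Runx1KO cells by 2.37 ± 0.055 on the log2 scale (SE, limma, adjusted p = 6.60e-08).

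Osteopontin, a secreted phosphoprotein that binds integrins and CD44, fell in Runx1KO cells. Spp1 was at 174, 179.3 and 174.2 TPM in control libraries, at 80.4, 82 and 78.3 TPM in Runx1KO libraries and at 160.3, 157 and 158.5 TPM in ZebDKO libraries. The groups did not overlap, and the Runx1KO libraries lay furthest from control. The log2 fold change was -1.12 ± 0.029 in Runx1KO cells (SE, limma, adjusted p = 1.09e-07) and -0.15 ± 0.028 in ZebDKO cells (SE, limma, adjusted p = 0.00167). The ZebDKO value turned to 0.055 (limma, adjusted p = 0.142) with median-ratio scaling, so its direction was not settled by these data. The difference between ZebDKO and Runx1KO cells was 0.97 ± 0.028 (SE, limma, adjusted p = 1.63e-07), and it passed the 2-fold limit at 1.13 with that scaling.

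Periostin, a matricellular protein of bone, valve and healing tissue, was low in every group. Postn was at 2.2, 2.4 and 2.5 TPM in control libraries, at 0.2, 0.3 and 0.2 TPM in Runx1KO libraries, and at 0.5 TPM in each ZebDKO library. It passed the filter through the control libraries alone, so it had to differ to be tested, and it was not tested between the knockouts. The log2 fold change was -1.45 ± 0.088 in Runx1KO cells (SE, limma, adjusted p = 7.81e-06) and -1.17 ± 0.084 in ZebDKO cells (SE, limma, adjusted p = 1.10e-05). Values this low move in steps of 0.1 TPM, and the pseudocount understates their change.

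The thrombospondins Thbs1 and Thbs2, trimeric glycoproteins that restrain angiogenesis, rose in Runx1KO cells, and Thbs1 is also known as an activator of latent TGF-beta. Thbs1 was at 190, 179 and 191.9 TPM in control libraries, at 360, 396.6 and 402.1 TPM in Runx1KO libraries and at 211.6, 216 and 209.2 TPM in ZebDKO libraries, without overlap. The log2 fold change in Runx1KO cells was 1.04 ± 0.049 (SE, limma, adjusted p = 2.17e-06), just past the 2-fold limit, and it lay between 1.01 and 1.19 over 17 alternatives. In ZebDKO cells it was 0.18 ± 0.035 (SE, limma, adjusted p = 0.00191), and between the knockouts it was -0.86 ± 0.044 (SE, limma, adjusted p = 1.90e-06). Thbs2 was listed at 0 in all 3 control libraries, at 2.5, 2.6 and 2.4 TPM in Runx1KO libraries, and at 0.1, 0 and 0 TPM in ZebDKO libraries. Its call (limma, adjusted p = 1.81e-06 against control and 1.99e-06 between the knockouts) rested on the Runx1KO libraries, the only ones to pass the filter, so it too had to differ to be tested, and no fold is given against a group at 0.

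Sparc, a collagen-binding counter-adhesive protein, was the second most abundant member in every group and changed little. The control libraries held 659.8, 677.5 and 681.4 TPM of Sparc, the Runx1KO libraries 573.4, 580.1 and 567.5 TPM and the ZebDKO libraries 636.7, 620 and 633.3 TPM. The groups did not overlap, yet the log2 fold changes were only -0.23 ± 0.023 in Runx1KO cells (SE, limma, adjusted p = 9.30e-05) and -0.09 ± 0.025 in ZebDKO cells (SE, limma, adjusted p = 0.00977). With median-ratio scaling the ZebDKO value of Sparc became 0.11 (limma, adjusted p = 0.0113). Fbn1 stayed below the filter with 0.4, 0.6 and 0.4 TPM in control, 0.4, 0.8 and 0.6 TPM in Runx1KO and 0.7, 0.6 and 0.5 TPM in ZebDKO libraries, and these ranges overlapped. Lox was listed at 0 in all 9 libraries. Neither gene was tested in any comparison.

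**Figure D2:**
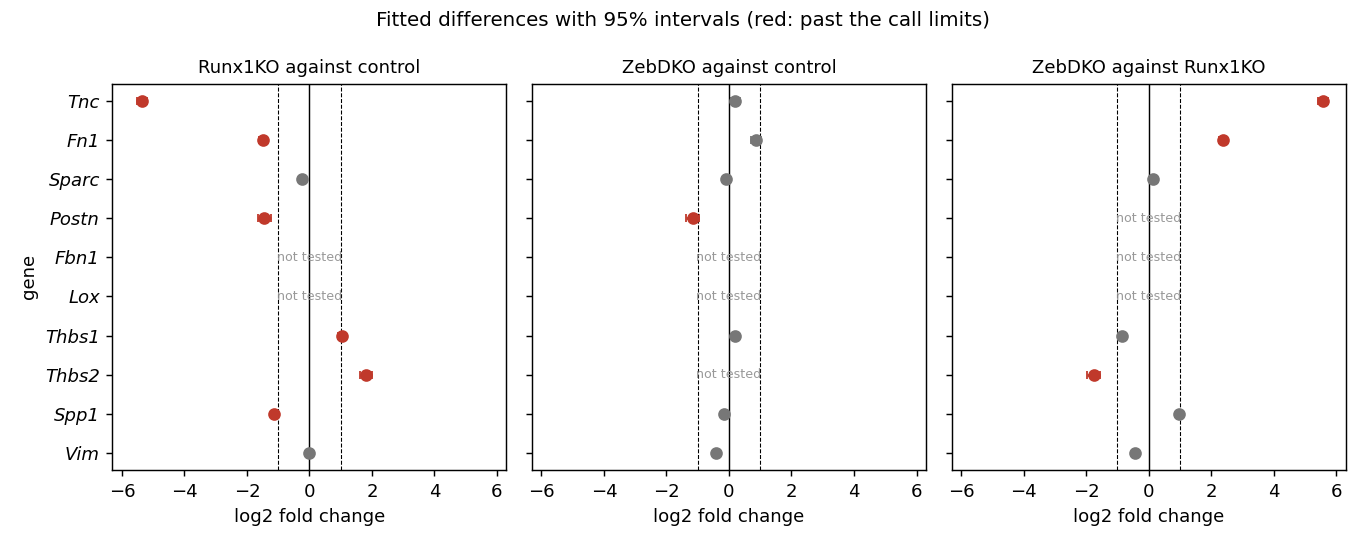
Fitted log2 fold change (x axis) of each member (y axis) in the 3 comparisons, with 95% intervals as error bars and dashed lines at the 2-fold limit. Red points passed both limits. Tnc stands at -5.36 in Runx1KO against control and at 0.21 in ZebDKO against control, and Fn1 at -1.498 and 0.87.

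In control cells the order by mean TPM was Vim, Sparc, Thbs1, Spp1, Tnc, Fn1, Postn and Fbn1, with Thbs2 and Lox at 0. The Thbs1 and Spp1 libraries overlapped, so these neighbours did not differ beyond their spread. In Runx1KO cells Fn1 (18 TPM) came before Thbs2 (2.5 TPM) and Tnc (1.13 TPM), and in ZebDKO cells the Tnc and Fn1 libraries overlapped at means of 100.2 and 97.3 TPM. The order between genes depended on the table. In the deposited table of 6 control and Runx1KO libraries the control level of Fn1 was 4.03-fold its level in the 9-library table. That of Spp1 was 3.69-fold, that of Postn 2.515-fold (5.95 TPM) and that of Tnc 0.528-fold. In the 6-library table Spp1 (649.3 TPM) came before Fn1 (212.1 TPM) and Thbs1 (206.3 TPM), and the Fn1 and Thbs1 libraries overlapped. Differences between groups moved less. In that table the Runx1KO log2 fold changes were -4.84 for Tnc, -1.64 for Fn1, -2.06 for Postn, -1.28 for Spp1, 1.19 for Thbs1, 1.11 for Thbs2, -0.29 for Sparc and 0.022 for Vim.

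Among 10768 genes at a mean of 5 TPM or more, the gene whose levels over the 9 libraries were most like those of Tnc was Col5a2, which encodes a chain of type V collagen (Pearson r = 0.999, n = 9). The closest gene was Glipr1 for Spp1 (r = 0.999), Tcf25 for Fn1 (r = 0.998), Chac2 for Vim (r = 0.998), Sf3b2 for Sparc (r = 0.996) and Chn2 for Thbs1 (r = 0.996). With 3 groups of tight replicates such values are common, and between 321 genes (Sparc) and 1195 genes (Vim) were at r over 0.95.

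The sequences below show binding regions placed with 5 called members: for Tnc, Fn1, Thbs1 and Spp1 the Runx1 peak of highest deposited fold enrichment. For Postn the Runx2 peak inside the closing region nearest its start is shown. They are read from the plus strand of mm9, whole or as the middle 300 bases of a longer peak. Capitals mark a Runx match (TGTGGT) or a Zeb match (CAGGTA or CAGGTG) on either strand, a Runx match on the minus strand reading ACCACA. AP-1 words (TGACTCA and its reverse complement TGAGTCA) were searched too and none was found in these 5 regions. A match is a match of letters and not a tested site. The Runx1 peaks of the other called member, Thbs2 (15.8 kb upstream, fold 5.55), and of Postn (331.8 kb downstream of its start, fold 3.50) are not shown. Both held 0 Runx, 0 Zeb and 0 AP-1 matches, so the Runx1 peaks printed do not stand for all called members.

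Tnc, Runx1 peak, chr4:63737337-63737550: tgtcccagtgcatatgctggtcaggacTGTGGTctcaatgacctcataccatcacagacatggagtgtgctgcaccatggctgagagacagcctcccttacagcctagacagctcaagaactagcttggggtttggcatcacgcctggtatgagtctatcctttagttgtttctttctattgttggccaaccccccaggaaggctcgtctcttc

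Fn1, Runx1 peak, chr1:71959047-71959346: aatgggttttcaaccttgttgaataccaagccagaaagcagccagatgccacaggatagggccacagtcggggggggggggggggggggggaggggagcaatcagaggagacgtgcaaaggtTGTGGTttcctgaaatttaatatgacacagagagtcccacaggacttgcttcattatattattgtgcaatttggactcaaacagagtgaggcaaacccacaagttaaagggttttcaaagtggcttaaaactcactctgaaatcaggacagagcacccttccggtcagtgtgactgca

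Thbs1, Runx1 peak, chr2:117630572-117630871: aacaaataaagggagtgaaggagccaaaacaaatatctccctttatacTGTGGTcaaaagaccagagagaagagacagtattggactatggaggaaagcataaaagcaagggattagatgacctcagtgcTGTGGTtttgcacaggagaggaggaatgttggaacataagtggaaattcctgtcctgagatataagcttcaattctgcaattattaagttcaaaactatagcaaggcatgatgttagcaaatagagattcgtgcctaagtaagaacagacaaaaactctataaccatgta

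Spp1, Runx1 peak, chr5:104863859-104864070: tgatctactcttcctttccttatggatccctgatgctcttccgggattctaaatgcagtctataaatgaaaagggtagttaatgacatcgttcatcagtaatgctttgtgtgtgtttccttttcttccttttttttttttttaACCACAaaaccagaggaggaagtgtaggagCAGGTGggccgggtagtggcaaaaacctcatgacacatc

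Postn, Runx2 peak, chr3:54162430-54162605: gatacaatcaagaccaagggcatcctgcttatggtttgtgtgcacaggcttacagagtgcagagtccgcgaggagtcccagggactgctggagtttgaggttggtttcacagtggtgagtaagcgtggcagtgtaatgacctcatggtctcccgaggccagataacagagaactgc

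The Tnc peak (fold 5.84) lies 55.7 kb upstream of the Tnc start in the gene model used (chr4:63620819-63681760, minus strand). It is within introns of the gene models 8030451A03Rik and Gm11216 and holds 1 Runx match. The Fn1 peak (fold 4.96) lies between genes, 259.4 kb upstream of Fn1 (chr1:71632094-71699774, minus strand), with 1 Runx match. The Thbs1 peak (fold 12.4) lies between genes, 306.9 kb upstream of Thbs1 (chr2:117937612-117952869, plus strand), and 2 Runx matches stand in the stretch shown. The Spp1 peak (fold 5.25) ends just before the Spp1 start (chr5:104864137-104870069, plus strand) and holds 1 Runx match on the minus strand and 1 Zeb match. The Postn region (fold 4.40 for Runx2 in control cells) lies 2.5 kb upstream of Postn (chr3:54165031-54194961, plus strand) and holds none of these words. A Runx word was present in 38.2% and a Zeb word in 23.5% of 300-base windows around all Runx1 peaks, and in 33.1% and 16.9% of the peaks at their own width. Of the RefSeq promoters of GRCm38.p6 (250 bases before the start), 7 members had 10 entries. Among them 1 Spp1 promoter held a Runx word, 128 bases before the start, together with a Zeb word, and those of Tnc, Postn, Sparc, Fbn1, Thbs2 and Vim held none of the words searched. Over all promoters 14% held a Runx word, 25.4% a Zeb word and 4.46% an AP-1 word. The RefSeq starts of these promoters were not matched to the starts used for distances, and they can differ.

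Regions were placed with genes by the distance rule of GREAT, in which each gene owns 5 kb upstream and 1 kb downstream of its start, extended up to 1000 kb to the next gene. The start was that of the protein-coding transcript with the longest span of each gene in GENCODE vM1, and other starts of a gene were not used. Placement does not show which gene a region acts on. The domains of the members were long, with a median of 467.4 kb (118.7 to 1154 kb) against 101.6 kb over 10708 tested genes with a position. These background genes all passed the filter in Runx1KO against control, while the 10 members include Fbn1 and Lox, which did not, so the 2 sets are not fully alike. At least 1 Runx1 peak fell to 8 of the 10 members (all except Sparc and Lox), against 52.1% of tested genes. Within a fixed 50 kb of the start the count was 5 of 10 against 55.0%, and within 20 kb 4 of 10 against 36.1%, so the members did not stand out by proximity of Runx1 peaks. Runx2 peaks fell to 9 of 10 members in control cells (75.7% of tested genes) and to 9 of 10 in Runx1KO cells (75.3%), in both cases all except Lox.

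ATAC-seq regions came in the 3 classes deposited: those the study lists as less accessible in Runx1KO cells (Runx1-dependent, here closing), those more accessible (Runx1KO-induced, here opening) and those similar in both (Runx1-independent, here stable). Closing regions fell to all 10 members, against 39.4% of tested genes. Within 50 kb of the start the count was 8 of 10 against 35.9%, and within 20 kb 5 of 10 against 17.2%. Opening regions fell to 7 of 10 members against 47.5%, within 50 kb to 4 of 10 against 49.7% and within 20 kb to 1 of 10 against 27.1%. Stable regions fell to 9 of 10 members (all except Tnc) against 96.1%, yet within 20 kb of the start to 5 of 10 against 94.2%. The 5 members without one there were Postn, Fbn1, Thbs2 and Lox, all under 3 TPM in every library of the 9-library table, and Tnc. The 46 closing regions overlapped a Runx1 peak in 5 cases (10.9%), a Runx2 peak in control cells in 10 cases (21.7%) and a Runx2 peak in Runx1KO cells in 10 cases (21.7%). Over all 8741 closing regions these shares were 11.8%, 21.5% and 20%, close to those at the members. A Runx word was found in 24 of the 46 regions (52.2%) and an AP-1 word in 24 (52.2%), against 54.5% and 45.8% of all closing regions.

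**Figure D3:**
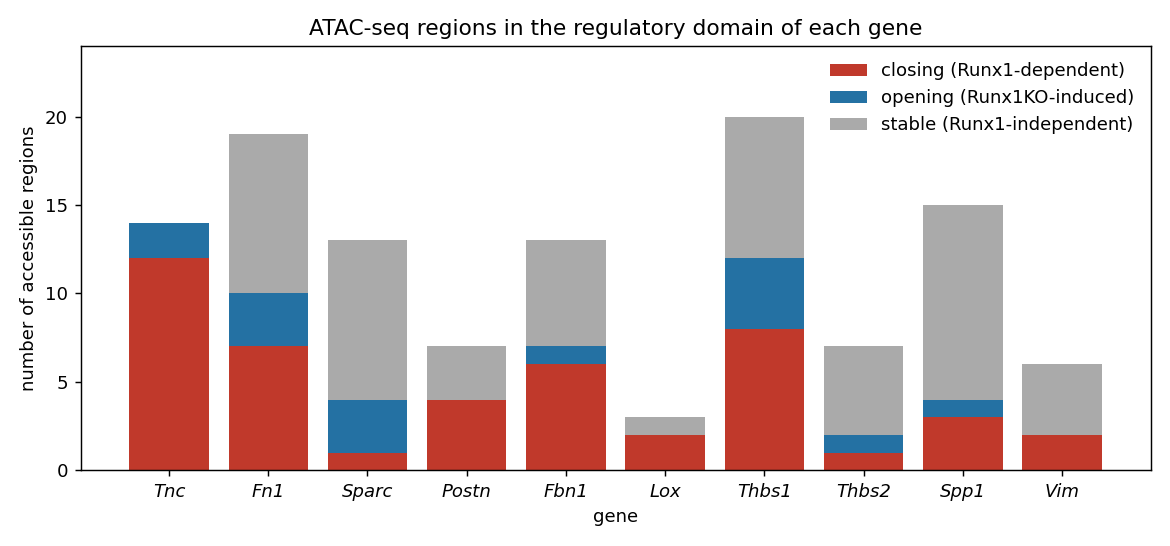
Number of ATAC-seq regions (y axis) in the regulatory domain of each gene (x axis), stacked by class, with closing regions in red, opening regions in blue and stable regions in grey. Tnc has 12 closing, 2 opening and no stable regions, while Sparc has 1, 3 and 9.

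The Tnc domain, at 1154 kb the longest of the members, held 12 closing, 2 opening and 0 stable regions, the highest count of closing regions among the 10 domains. Within a fixed 50 kb of the start Tnc had 4 closing regions, as many as Spp1, while every other member had 0 or 1. Within 20 kb Tnc had 1, as had Vim, Postn, Spp1 and Lox, but for Tnc these counts hold only for the start of the gene model used. Stable regions within 50 kb fell to 9 of 10 members, against 97.7% of tested genes, and Tnc was the member without one. Counts per domain grow with its length, and at least 12 closing regions were found for 80 of the 10708 tested genes (0.747%), and 3 genes, Tnc included, had that many and no stable region. Of the 12, 9 lay between 9.2 and 77.8 kb upstream of the start used here, and no region of any class was listed closer to it. That start is the one of the GENCODE vM1 model Tnc-201 (chr4:63681760 in mm9). The RefSeq promoters of Tnc are placed in GRCm38.p6 and were not matched to it. Whether a listed region covers a RefSeq start of Tnc was therefore not tested, and distances from another start would differ. The printed Runx1 peak lay inside a closing region and overlapped a Runx2 peak in control cells (fold 8.06) and in Runx1KO cells (fold 4.88). Thus a Runx2 peak remained listed there in Runx1KO cells, in which Tnc was at 1.13 TPM.

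Fn1 and Spp1, which were also lower in Runx1KO cells, had starts in stable regions. The stable region over the Fn1 start was overlapped by a Runx1 peak 0.3 kb upstream (fold 4.67) and by Runx2 peaks of fold 7.05 in control and 6.07 in Runx1KO cells at 0.2 kb upstream. The domain of Fn1 ended 1 kb downstream of its start, so regions further into the Fn1 gene were not counted. The domain held 7 closing, 3 opening and 9 stable regions, and the closing region nearest the start lay 110.6 kb upstream. The printed Fn1 peak was in a closing region and overlapped Runx2 peaks of fold 6.87 in control and 6.09 in Runx1KO cells. For Spp1 the printed promoter peak overlapped the stable region at the start and Runx2 peaks in both lines. Its 3 closing regions lay 6.6, 27.7 and 35.4 kb upstream, the second of them over a further Runx1 peak 27.1 kb upstream and Runx2 peaks in both lines. Postn had 4 closing and 3 stable regions, and Runx2 peaks were listed in its nearest closing region in control (fold 4.40) and Runx1KO cells (fold 5.24).

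Thbs1, which rose in Runx1KO cells, had the strongest Runx1 peaks of the members. All 3 lay far upstream, at 380.4 kb (fold 5.84), 306.9 kb (fold 12.4) and 160.6 kb (fold 9.52), and each held at least 2 Runx words. The nearer pair lay in closing regions, and Runx2 peaks were listed there in control cells (fold 10.3 and 9.69) and in Runx1KO cells (fold 9.88 and 8.18). Thbs1 thus had 8 closing regions beside 4 opening and 8 stable ones, and its start lay in a stable region. For Thbs2 the 1 Runx1 peak was 15.8 kb upstream (fold 5.55) and the 1 opening region 235.8 kb upstream.

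Vim and Sparc, which changed little in Runx1KO cells, had starts in stable regions. At Vim (chr2:13495554-13504453, plus strand) 2 of the 3 Runx1 peaks lay at 0.5 and 0.1 kb upstream (fold 4.17 and 3.94), within the same stable region as Runx2 peaks in both lines, and the domain held 2 closing, 0 opening and 4 stable regions. At Sparc (chr11:55208002-55233582, minus strand) no Runx1 peak was listed in the domain or within 20 kb of the start, 1 lay within 50 kb but outside the domain, a Runx2 peak lay at the start in control (fold 3.22) and Runx1KO cells (fold 3.27), and the domain held 1 closing, 3 opening and 9 stable regions. Fbn1 had 6 closing, 1 opening and 6 stable regions, and Lox had 2, 0 and 1.

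**Figure D4:**
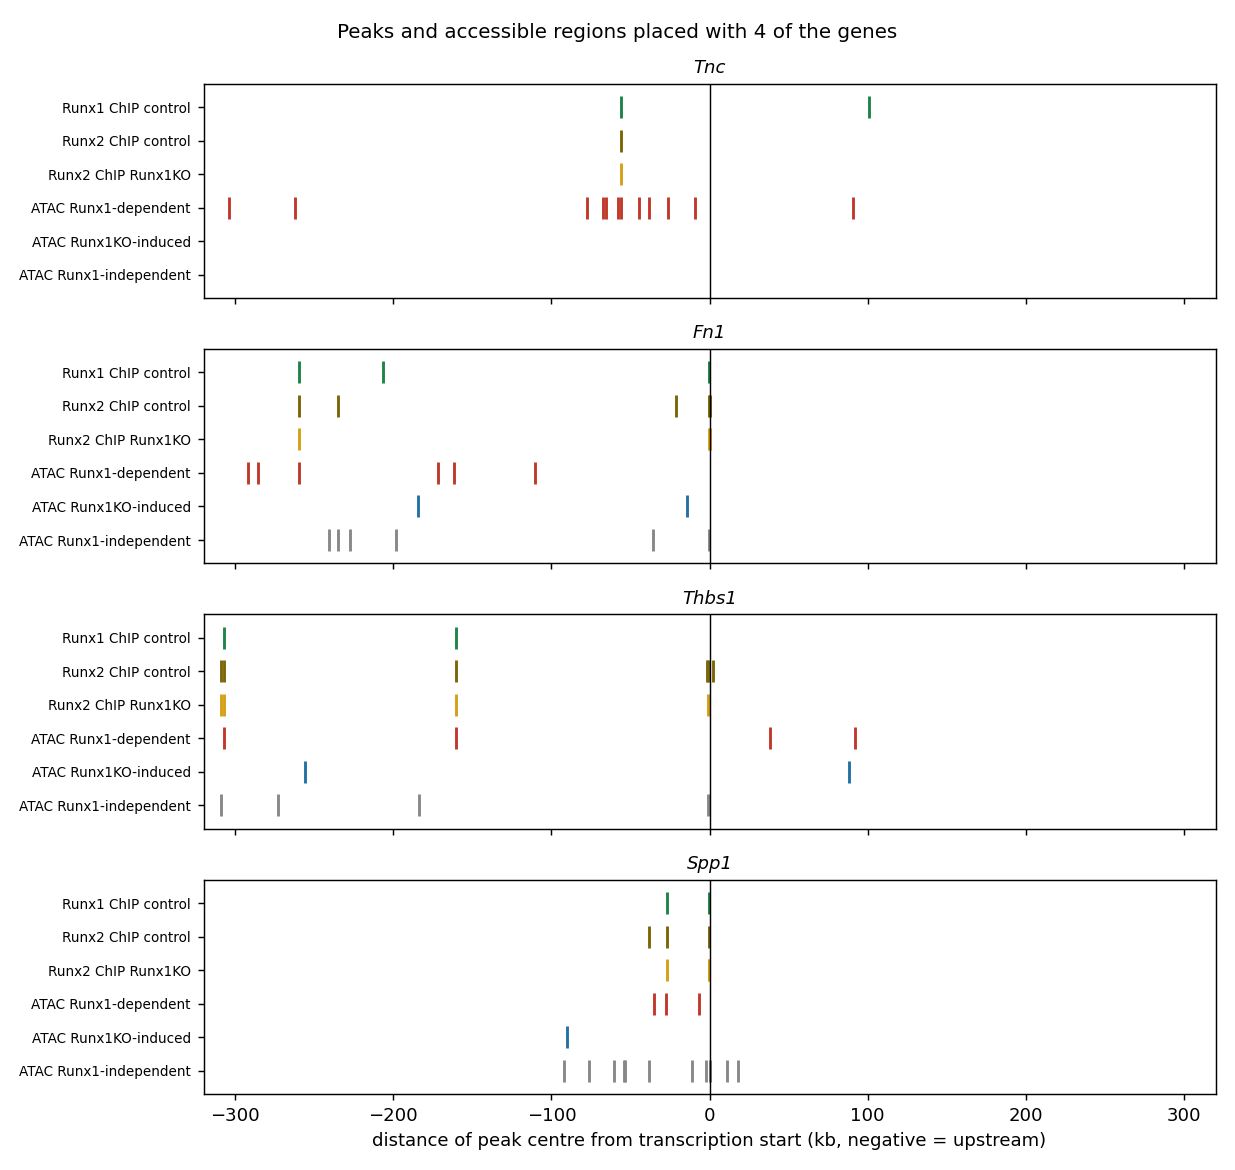
Distance of peak centres from the transcription start in kb (x axis, negative upstream) for Tnc, Fn1, Thbs1 and Spp1, with 1 row per deposited list and 1 tick per peak. Only peaks within 320 kb are drawn. Tnc shows 9 closing regions between 9.2 and 77.8 kb upstream of the start in the gene model used and no stable region, while the starts of Fn1, Thbs1 and Spp1 lie in stable regions.

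Genes of the same matrix systems were taken from fixed lists. Their counts stand beside 7.91% higher and 5.1% lower of all genes tested in Runx1KO cells, 7.49% and 7.28% in ZebDKO cells, and 6.59% and 9.2% between the knockouts. Genes that reached 1 TPM in 1 group only had to differ to be tested, and the counts without them are given as well. A gene with even 1 library at 1 TPM in its lower group stayed in those counts, and some of these also passed the filter through the other group. Of 16 tested matrix receptors, 1 was higher and 4 were lower in Runx1KO cells, and of 17 tested in ZebDKO cells 4 were higher and 2 lower. Without genes that entered through 1 group these were 1 and 2 of 13, and 3 and 2 of 16. Itga9, the integrin subunit that binds tenascin C and osteopontin, fell from 17, 15.4 and 17.7 TPM to 0.1, 0.1 and 0.2 TPM in Runx1KO libraries (log2 fold change -3.96, limma, adjusted p = 3.24e-08), and stood at 3.5, 3.6 and 3.3 TPM in ZebDKO libraries (-1.98, limma, adjusted p = 3.23e-07). Lrp1, an endocytic receptor that clears thrombospondin 1, fell from a mean of 55.4 to 7.37 TPM in Runx1KO cells (log2 fold change -2.75, limma, adjusted p = 2.19e-07) and to 22.3 TPM in ZebDKO cells (-1.27). Itga9 entered the Runx1KO test through the control libraries alone. Itgb6, an epithelial integrin subunit that binds fibronectin, rose from 0.133 to 3.20 TPM in ZebDKO cells (log2 fold change 1.89, limma, adjusted p = 4.04e-06), and it entered the test through the ZebDKO libraries alone.

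Of the proteoglycans, 0 were higher and 5 lower of 7 tested in Runx1KO cells (median log2 fold change -1.57, all genes -0.06), and 1 was higher and 3 lower of 7 in ZebDKO cells (median -0.85, all genes -0.18). Fmod, Omd and Vcan entered the Runx1KO test, and Fmod and Omd the ZebDKO test, through the control libraries alone. Without them 0 were higher and 2 lower of 4, and 1 was higher and 2 lower of 5. Versican (Vcan) was at 18.9, 17.1 and 18.2 TPM in control, at 0, 0 and 0.1 TPM in Runx1KO and at 12.2, 14 and 10.7 TPM in ZebDKO libraries. Mimecan (Ogn) fell from a mean of 149.9 TPM to 14.5 TPM in Runx1KO and 25.2 TPM in ZebDKO cells (log2 fold changes -3.29 and -2.53). Decorin (Dcn) fell from 7.47 to 1.6 TPM in Runx1KO and 1.67 TPM in ZebDKO cells (log2 fold changes -1.70 and -1.67, limma, adjusted p = 1.50e-05 and 2.55e-05). Of 10 tested matricellular relatives 1 was higher and 5 were lower in Runx1KO cells (median -1.02), and 1 was higher and 1 lower in ZebDKO cells (median -0.10). Without Ccn5, Mgp and Smoc1, which entered through 1 group, 0 were higher and 3 lower of 7 in Runx1KO cells, and without Mgp and Smoc1 0 of 8 were called in ZebDKO cells. Ccn4, a Wnt-responsive matricellular protein, fell from 37.4 to 3.37 TPM in Runx1KO cells (log2 fold change -3.14) and was at 42.8 TPM in ZebDKO cells. Smoc1 rose from 0.233 to 12.4 TPM in Runx1KO and to 2.70 TPM in ZebDKO cells. Mgp, an inhibitor of matrix calcification, was at 3.63 TPM in control and at 0 in all ZebDKO libraries.

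In the microfibril and elastic fibre list 2 genes were higher and 3 lower of 9 tested in Runx1KO cells, and 1 was higher and 2 lower of 9 in ZebDKO cells, and 2 and 2 of 8 and 1 and 1 of 8 without Emilin1, which entered both tests through the control libraries. The microfibril protein Mfap2 fell from 21.0 to 1.40 TPM in Runx1KO and 6.83 TPM in ZebDKO cells (log2 fold changes -3.22 and -1.49). Emilin1, a glycoprotein of elastic fibres, fell from 8.27 to 0.467 TPM in Runx1KO and 0.367 TPM in ZebDKO cells (log2 fold changes -2.66 and -2.76), and Mfap5 rose from 0.800 to 5.27 TPM in Runx1KO and 4.93 TPM in ZebDKO cells (1.82 and 1.74). With only 1 control library at 1 TPM or more (1.2 TPM), Mfap5 passed the filter of both comparisons through the knockout libraries. Of the matrix processing and crosslinking enzymes, 4 were higher and 1 was lower of 15 tested in Runx1KO cells, and 3 were higher and 2 lower of 14 in ZebDKO cells. Loxl2, the 1 gene of this list that reached 1 TPM in 1 group only, was not called. Pcolce2 and, in Runx1KO cells, P4ha3 were called higher with only 1 control library at 1 TPM or more (1.2 TPM for each gene). They too passed the filter through the knockout libraries, so their calls are no support. Loxl1, a lysyl oxidase relative needed for elastic fibres, was at 67.5, 65.2 and 64.9 TPM in control libraries while Lox was at 0, and it fell to 3, 2.4 and 3.1 TPM in Runx1KO (log2 fold change -4.13, limma, adjusted p = 2.34e-08) and to 19.6, 19.7 and 23.7 TPM in ZebDKO libraries (-1.61, limma, adjusted p = 1.29e-06). Pcolce2, a procollagen proteinase enhancer, rose from a mean of 0.767 TPM to 17.4 TPM in Runx1KO and 46.8 TPM in ZebDKO cells.

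Of the other intermediate filament genes 0 were higher and 1 was lower of 7 tested in Runx1KO cells, and 1 was higher and 0 lower of 8 in ZebDKO cells. Desmin (Des), the filament protein of muscle, fell from 4.43 to 1.20 TPM in Runx1KO cells (log2 fold change -1.31, limma, adjusted p = 4.65e-06), and the neuronal filament gene Nefl rose from 0.0333 to 1.57 TPM in ZebDKO cells, entering the test through those libraries alone. Between the knockouts, the genes higher in ZebDKO than in Runx1KO cells were 6 of 16 matrix receptors, 4 of 9 matricellular relatives, 2 of 8 microfibril genes, 2 of 14 processing enzymes, 1 of 5 proteoglycans and 1 of 7 other intermediate filament genes, and in the same order 0, 1, 1, 1, 0 and 0 were lower. Without genes that entered through 1 group these were 4 of 14, 3 of 8, 2 of 8, 2 of 13, 0 of 4 and 0 of 6 higher, and 0, 1, 1, 0, 0 and 0 lower.

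**Figure D5:**
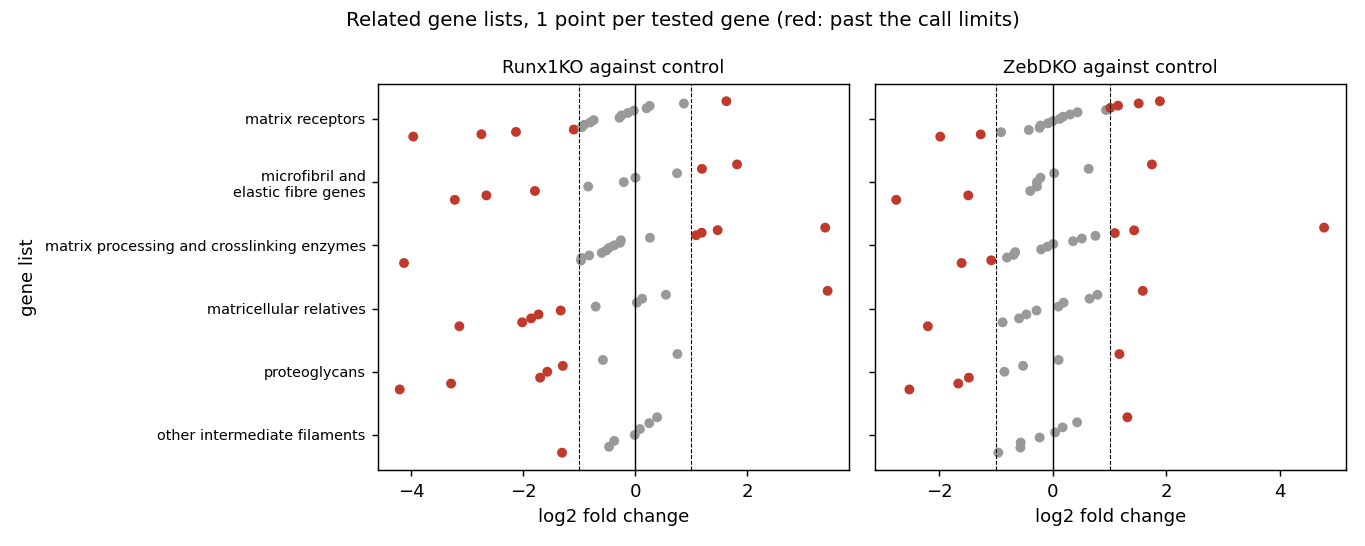
Log2 fold change (x axis) of every tested gene of 6 related gene lists (y axis) in Runx1KO and ZebDKO cells against control, with red points past the call limits and dashed lines at 2-fold. In Runx1KO cells 5 of 7 proteoglycans and 5 of 10 matricellular relatives are called lower, against 3 of 7 and 1 of 10 in ZebDKO cells, counts that include genes tested through 1 group only.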

How the data were processed

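Per the paper, the authors removed adapters (Trim Galore), mapped to the mm9 genome, counted reads per gene and deposited TPM for 9 libraries (1 decimal) and, in a separate table, for 6 control and Runx1KO libraries (2 decimals). The lengths used and strandedness are not given in the sources used here. For ChIP-seq the authors called MACS2 peaks on pooled replicates and deposited the fold over local background and the -log10 q-value of each peak, and Runx1 peaks also found in Runx1KO cells had been removed. For ATAC-seq the deposited lists gave only regions by class for use here, since their further columns hold the authors' own fold changes, which were not used. Peak lists hold no values per replicate, so no test was made on them. Depth cannot be read from TPM or peak lists.

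TPM were fitted with limma 3.58.1 in R 4.3.3 as log2(TPM + 1) with a variance trend, on genes at 1 TPM or more in at least 3 of 6 libraries of a comparison, with Benjamini-Hochberg adjustment over all genes tested. The procedure was tested on simulated data. The 3 libraries of a group are separate cultures, so p-values measure only the spread between these samples. Peaks were placed by the GREAT rule on GENCODE vM1 protein-coding genes listed in the TPM table, with Python 3.11.15, pandas 2.3.3, pysam 0.24.0 and samtools 1.23.1, and figures were drawn with matplotlib 3.10.9. Promoters came from RefSeq.

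The named genes were the 10 members, the targeted genes, and from each related list the 2 genes with the largest absolute change among those called in each comparison with control. The peaks described as nearest the start, and the second Spp1 peak, were chosen after their values were seen. The members and lists were chosen with earlier results of these data known. The alternatives tried were smaller pseudocounts (0.1 and 0.5), a filter of 5 TPM or none, quantile or median-ratio scaling, a block for the replicate number, 9 libraries in 1 fit, a 1.3-fold limit, no variance trend, each library left out, the 6-library table, and for peaks windows of 50 and 20 kb, a q-value of 0.01 and the stronger part of the peaks by fold.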

Additional observations from a re-analysis of the deposited data

How the results depend on the processing

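Of 356 refits of single members, 343 kept their direction and their side of the limits, none of those that could still be tested lost a call, 7 gained one and 6 changed sign. The sign changes were those of Vim in Runx1KO cells (-0.073 with quantile normalization, at an adjusted p of 0.0249 in limma, and -0.0055, -0.012 and -0.0077 without control replicate 1, control replicate 3 or Runx1KO replicate 2, its range over left-out libraries being -0.012 to 0.024), and those of Sparc (0.11) and Spp1 (0.055) in ZebDKO cells with median-ratio scaling. The number of members called in ZebDKO against control went from 1 to 0 with a filter of 5 TPM, which leaves Postn untested (the same filter took Runx1KO from 6 to 4, without Postn and Thbs2, and the knockouts against each other from 3 to 2, without Thbs2), to 2 with median-ratio scaling, which adds Fn1, and to 3 with a 1.3-fold limit. Between the knockouts the 1.3-fold limit gave 6 members. With that limit the genes called were 4857 in Runx1KO, 6746 in ZebDKO and 6780 between the knockouts, against 1699, 1916 and 2065. Leaving out each library in turn kept the members called at 6, 1 and 3, and the genes called at 1699 to 1706, 1895 to 1960 and 2035 to 2104. Median-ratio scaling moved the share of higher among called genes from 50.7% to 64.5% in ZebDKO against control and from 41.7% to 53.5% between the knockouts. With a replicate block 1040 genes were higher and 669 lower in Runx1KO cells, 977 and 945 in ZebDKO cells, and 864 and 1207 between the knockouts, and members called stayed at 6, 1 and 3. Libraries of the same number correlated between -0.053 and 0.039 in their deviations, and in 2 of 9 cases a library correlated best with its own number, so the numbers were not taken as pairs.

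Within 50 kb of the start 5 members had a Runx1 peak and 4 an opening region. Within 20 kb these were 4 and 1, and 5 members had a closing and 5 a stable region. Read numbers are not in the tables, and members below 1 TPM in both groups of a comparison could not be compared. These were Fbn1 and Lox throughout, Thbs2 in ZebDKO against control, and Postn between the knockouts. The 9- and 6-library tables hold the same control and Runx1KO groups and are not independent.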
